A study of Mus musculus with 12 samples.

Results

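The response of mouse kidney to ischemia–reperfusion (I/R) injury was compared between mice bred to lack augmenter of liver regeneration (ALR, encoded by Gfer) in the proximal tubule and their controls. The quantity described is the knockout by I/R interaction, that is, for each gene, the log2 fold change of injured over sham kidneys in the knockout minus the same log2 fold change in the control. All 12 of the 12 bulk RNA-seq libraries of the series were used, 3 in each of 4 groups. Ctrl libraries came from ALR flox/flox mice after sham surgery, and Ctrl+I/R libraries from ALR flox/flox mice after 22 min of bilateral renal ischemia and 24 h of reperfusion. PT-KO libraries came from ALR flox/flox mice that also carried Ggt1-Cre, after sham surgery, and PT-KO+I/R libraries from such mice after the same ischemia and reperfusion. The sample labels call these genotypes WT and ALR knockdown. The floxed allele on a C57BL/6 background was thus shared by every group, and the Cre, driven by Ggt1, was meant to delete ALR only in proximal tubular cells. The labelled tissue was kidney cortex, which contains many other cell types. The labels do not say whether the libraries of a group came from separate mice, so p-values measure the spread between these libraries.

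ALR is a sulfhydryl oxidase of the mitochondrial intermembrane space, where it reoxidizes the import receptor Chchd4 (Mia40) and so keeps the disulfide relay for imported proteins running. Proximal tubular cells reabsorb most of the filtered solutes and burn mainly fatty acids. After I/R they lose transporters, express injury proteins such as kidney injury molecule-1 (Havcr1) and re-enter the cell cycle, while neutrophils, monocytes and lymphocytes enter the tissue.

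Library totals ranged from 12165089 to 23123693 counts, and 16168 genes had enough counts to be tested. Ctrl libraries 1 and 2 were from females (Xist counts of 22402 and 19755, with no count in 4 Y-linked genes), whereas Ctrl library 3 and the 9 libraries of the other groups were male. Therefore the control side of the interaction mixes sex and injury, and the main values are also given from a second fit with a sex term, in which the Ctrl group rests on library 3 alone. The proximal tubule markers Lrp2 and Slc34a1 were abundant in all sham libraries, at 4001 to 4927 CPM and 4476 to 5759 CPM (counts scaled to a common library size). No gene differed between PT-KO and Ctrl by edgeR's test at an adjusted p under 0.05, although 2259 had an unadjusted p under 0.05 and DESeq2 called 335. Without Ctrl library 3, which leaves 2 female Ctrl libraries against male PT-KO libraries, edgeR called 831.

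Gfer (ENSMUSG00000040888, mm10 chr17:24693187-24696156, minus strand) is the gene that was floxed. It had 12.7, 11.4 and 14.4 CPM in Ctrl, 15.3, 20.0 and 17.6 CPM in Ctrl+I/R, 9.97, 17.1 and 15.0 CPM in PT-KO and 21.6, 22.8 and 21.6 CPM in PT-KO+I/R. The PT-KO libraries overlapped the Ctrl libraries, and the injured kidneys of both genotypes lay above the sham libraries of their own genotype. The I/R response was 0.46 ± 0.18 (log2 fold change ± SE, adjusted p = 0.070) in Ctrl and 0.65 ± 0.18 (adjusted p = 0.0070) in PT-KO, with an interaction of 0.19 ± 0.25 (adjusted p = 0.59). These gene-level counts thus did not show the deletion, whereas the paper reported decreased ALR expression in PT-KO kidneys. The share of undeleted cells in the cortex was not measured, and its part in these values was not tested.

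More genes were called after I/R in the knockout than in the control. In Ctrl, 2594 genes rose (16.0% of those tested) and 2344 fell (14.5%), whereas in PT-KO 4979 rose (30.8%) and 5069 fell (31.4%). When libraries were scaled by total counts and not by TMM, 3558 rose and 1458 fell in Ctrl, and without Ctrl+I/R library 2 the number called in Ctrl was 2887. With the sex term it was 2029, and from the 6 Ctrl and Ctrl+I/R libraries alone 3019. Of the genes called in Ctrl, 73.6% were called in the same direction in PT-KO, which is 36.2% of those called in PT-KO. Across the 16168 genes, which are not independent of each other, the responses of the 2 genotypes had a Pearson r of 0.615 and a Spearman rho of 0.591, and they share no library. The median absolute log2 fold change was 0.339 in Ctrl and 0.653 in PT-KO.

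The interaction itself passed an adjusted p under 0.05 in 4953 genes, 30.6% of those tested. The response was more positive in PT-KO in 2305 genes (14.3%) and more negative in 2648 (16.4%). Scaled by total counts, the split was 1591 against 2997, and the median interaction over all genes moved from -0.02 to -0.10. With the sex term 3233 genes were called, and 2928 were called in both fits with the same sign, 1295 more positive (8.01%) and 1633 more negative (10.1%). Of the 4953 genes, 4951 kept their sign with the sex term.

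**Figure D1:**
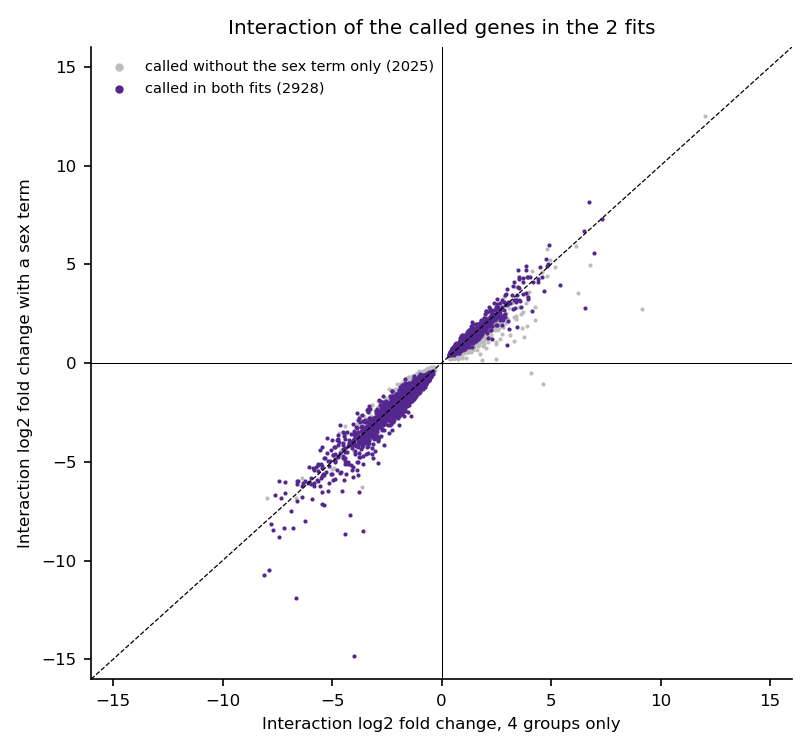
Interaction log2 fold change of the 4953 called genes in the fit of the 4 groups (x axis) and in the fit with a sex term (y axis), 1 point per gene, with the line of equality dashed. The 2928 purple genes were called in both fits and the 2025 grey genes only without the sex term; all but 2 of the 4953 lie in the quadrants of equal sign.

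Each called gene was placed by its I/R response in the 2 genotypes. The response was gained in 3049 genes (called in PT-KO and not in Ctrl), amplified in 1125 (called in both in 1 direction and larger in PT-KO), lost in 388 (called in Ctrl and not in PT-KO), reversed in 269 (called in both in opposite directions) and dampened in 27 (called in both and smaller in PT-KO). The other 95 were called in neither genotype. Gained and amplified responses were thus 61.6% and 22.7% of the called genes, against 7.83% lost and 5.43% reversed. Gained responses went up in 1487 genes and down in 1562, amplified ones up in 509 and down in 616. Among lost responses, 248 had been rises in Ctrl and 140 falls, and among reversed ones 155 and 114. In the fit with the sex term the interaction was called in 1801 of the gained, 714 of the amplified, 149 of the lost, 243 of the reversed and 8 of the dampened genes. That fit calls fewer responses in Ctrl, so a gene can keep its interaction and change its class: 471 amplified and 164 reversed genes became gained. The leading genes of each class were chosen among those called in both fits, so their sex-term values are a description. Single libraries moved the class sizes as well. Without Ctrl library 1, Ctrl library 2 or Ctrl+I/R library 2, lost genes numbered 242, 241 and 243 and reversed genes 152, 163 and 161. Amplified genes numbered 632 without Ctrl library 1, 642 without Ctrl library 2 and 620 without Ctrl+I/R library 1. The small dampened class ranged from 12 to 53 and moved by over 1.5 times with every library left out except Ctrl+I/R library 1.

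**Figure D2:**
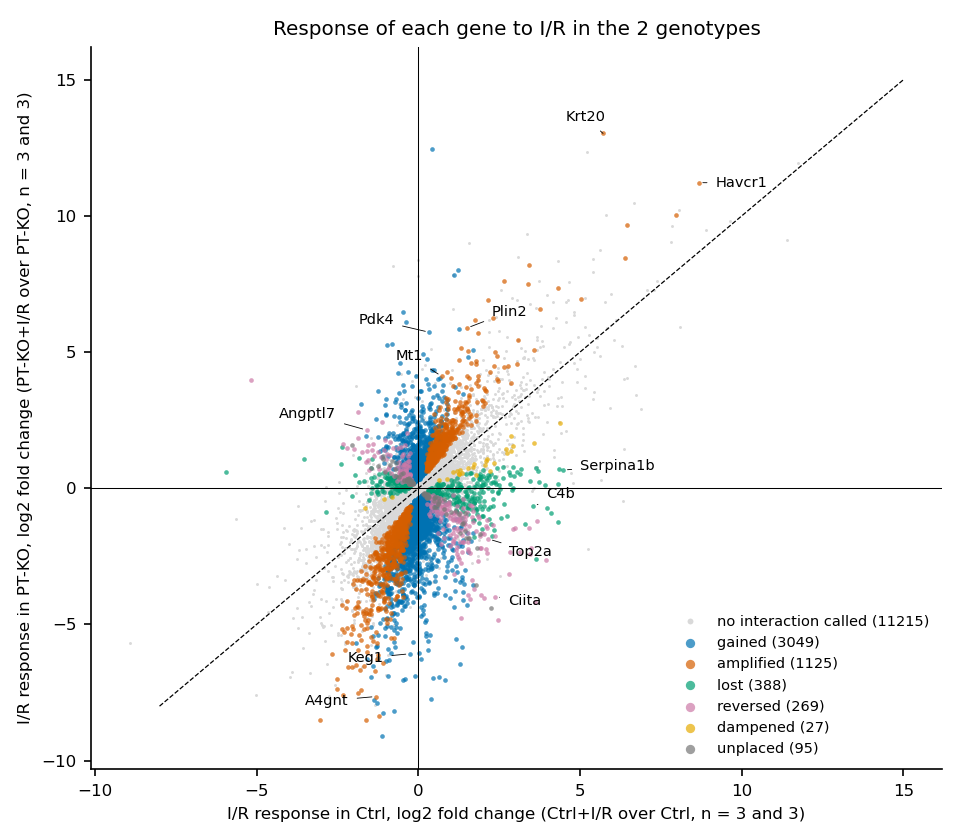
I/R response of each of the 16168 tested genes in Ctrl (x axis) and in PT-KO (y axis), as log2 fold changes, coloured by class, with equality dashed. The gained genes lie along the vertical axis, the lost genes along the horizontal axis, and the amplified genes are steeper than the dashed line, with Krt20 at 5.71 and 13.03; Krt20, Plin2, A4gnt, Top2a and Ciita are labelled with other genes of the text.

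The clearest losses and reversals were in genes of cell division. In control kidneys I/R raised 39 of 40 tested genes of DNA replication and the G1/S transition and 29 of 43 genes of mitosis and G2/M, and no member of either list fell. In PT-KO kidneys 11 of the replication genes rose and 9 fell, and 3 of the mitosis genes rose and 16 fell. The interaction was called in 35 of the 40 replication genes and in 29 of the 43 mitosis genes, all of them more negative in PT-KO, where 16.4% of all tested genes were. The median replication response was 2.14 in Ctrl and 0.20 in PT-KO, and the median mitosis response 1.38 and -0.75, against a median over all genes of -0.01 in both genotypes. With the sex term 28 and 19 members were called, and the interaction medians were -1.71 and -2.15.

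Among the mitosis genes, Top2a, the DNA topoisomerase that untangles chromosomes before they separate (mm10 chr11:98992943-99024189, minus strand), had 9.10, 7.77 and 8.31 CPM in Ctrl, 40.9, 40.7 and 31.8 CPM in Ctrl+I/R, 11.7, 5.44 and 4.66 CPM in PT-KO and 3.08, 1.69 and 1.42 CPM in PT-KO+I/R. All Ctrl+I/R libraries lay above every other library and all PT-KO+I/R libraries below. Its response was 2.17 ± 0.30 in Ctrl and -1.86 ± 0.36 in PT-KO, an interaction of -4.03 ± 0.47 (adjusted p = 0.00015, with the sex term -4.05, adjusted p = 0.0020). Mki67, the antigen used to stain proliferating cells, showed the same order, with 17.7, 15.0 and 17.2 CPM in Ctrl, 41.7, 38.7 and 33.9 CPM in Ctrl+I/R, 18.6, 10.8 and 7.79 CPM in PT-KO and 3.85, 2.18 and 2.51 CPM in PT-KO+I/R. Its interaction was -3.35 ± 0.39 (adjusted p = 0.00016). Cdk1, the kinase that drives entry into mitosis, had 2.31, 2.02 and 3.38 CPM in Ctrl, 13.9, 11.9 and 10.8 CPM in Ctrl+I/R, 3.41, 2.21 and 1.35 CPM in PT-KO and 4.02, 3.03 and 3.16 CPM in PT-KO+I/R, a rise in Ctrl (2.24 ± 0.29) that was not called in PT-KO (0.54 ± 0.31). Cdk1 was chosen after its values were seen, and its interaction (-1.70 ± 0.42, adjusted p = 0.010) had an adjusted p of 0.078 with the sex term.

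Of the replication genes, 20 were lost, 8 reversed, 6 dampened and 1 gained. Tk1, the thymidine kinase of S phase, was reversed, with 5.58, 5.57 and 8.98 CPM in Ctrl, 17.6, 17.9 and 26.1 CPM in Ctrl+I/R, 6.56, 9.32 and 5.89 CPM in PT-KO and 2.48, 1.02 and 0.967 CPM in PT-KO+I/R, and an interaction of -3.97 ± 0.47 (adjusted p = 0.00017). E2f1, the transcription factor that switches on replication genes, was reversed as well, from 1.77 ± 0.29 to -1.59 ± 0.34. The helicase subunits Mcm4 and Mcm6 and the licensing factor Cdt1 were the leading dampened genes. Mcm4 had 11.4, 10.6 and 9.42 CPM in Ctrl, 37.9, 61.2 and 48.8 CPM in Ctrl+I/R, 11.9, 10.2 and 11.8 CPM in PT-KO and 15.7, 19.1 and 18.3 CPM in PT-KO+I/R, so that the PT-KO+I/R libraries lay above all sham libraries and below all Ctrl+I/R libraries. Its response was 2.23 ± 0.17 in Ctrl and 0.65 ± 0.16 in PT-KO (interaction -1.58 ± 0.23, adjusted p = 0.00056), while the interactions of Mcm6 and Cdt1 were -1.30 ± 0.25 and -1.39 ± 0.31.

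The summed level of the 40 replication genes was 339 to 355 CPM in Ctrl, 819 to 1209 CPM in Ctrl+I/R, 339.7 to 359 CPM in PT-KO and 369 to 390.4 CPM in PT-KO+I/R. For the 43 mitosis genes it was 165 to 184 CPM in Ctrl, 320.5 to 372 CPM in Ctrl+I/R, 89.9 to 195 CPM in PT-KO and 75.3 to 110.0 CPM in PT-KO+I/R. Ctrl+I/R stood far above the other groups in both sums, and PT-KO+I/R was just above the sham groups in the first and overlapped PT-KO in the second. In bulk tissue, fewer cells of a type and less RNA per cell cannot be told apart. Lymphocyte and antigen-presenting cell markers moved in the same direction (their summed levels are given with the immune genes), and their part in the cell division result was not tested.

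**Figure D3:**
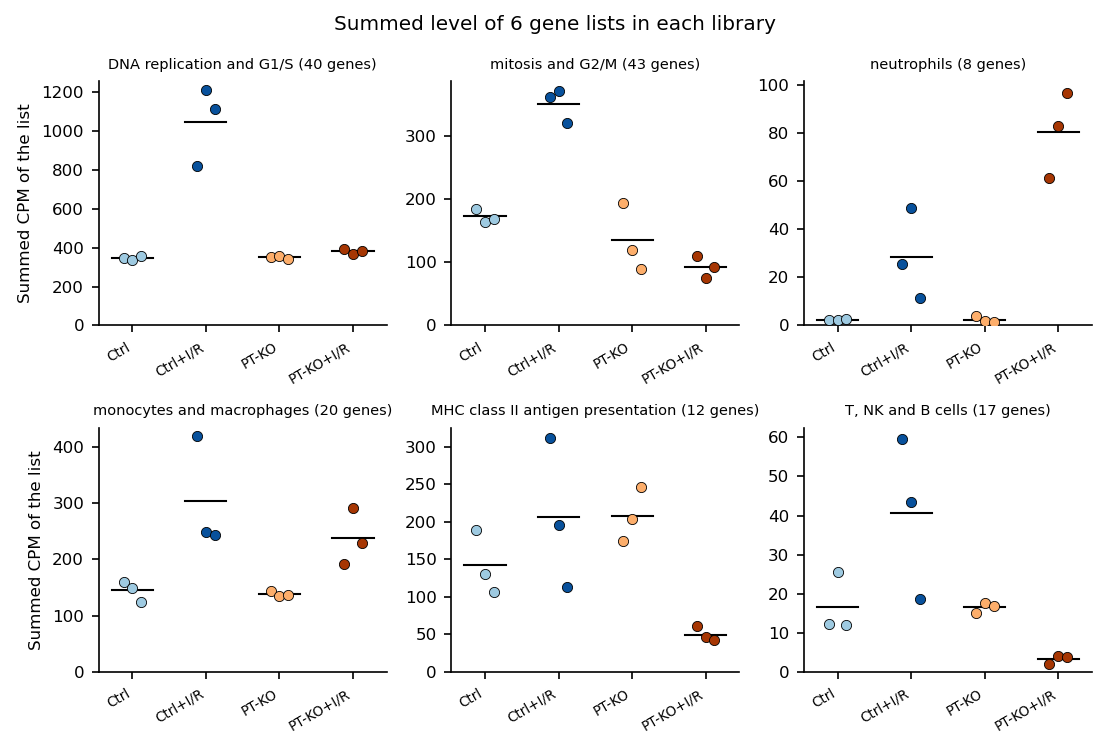
Summed CPM (y axis, linear, from 0) of the members of 6 gene lists in each of the 12 libraries, by group (x axis), with 1 point per library and a line at the mean of 3. Replication and mitosis genes were highest in Ctrl+I/R, neutrophil markers in PT-KO+I/R, and the MHC class II and lymphocyte markers were lowest in PT-KO+I/R.

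The promoters of the mitosis genes are shown because these genes moved together. The sequences are the 250 bases upstream of the annotated start from RefSeq (GRCm38.p6, the mm10 assembly), 5′ to 3′ on the gene's strand. Capitals mark the CHR core TTTGAA, which cell cycle repressor complexes bind, and the NF-Y box CCAAT, each on either strand.
Mki67: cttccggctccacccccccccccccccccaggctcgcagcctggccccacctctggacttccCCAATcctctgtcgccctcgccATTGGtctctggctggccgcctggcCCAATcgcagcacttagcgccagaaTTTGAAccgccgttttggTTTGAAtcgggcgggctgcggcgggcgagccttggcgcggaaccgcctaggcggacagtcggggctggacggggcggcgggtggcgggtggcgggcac
Top2a: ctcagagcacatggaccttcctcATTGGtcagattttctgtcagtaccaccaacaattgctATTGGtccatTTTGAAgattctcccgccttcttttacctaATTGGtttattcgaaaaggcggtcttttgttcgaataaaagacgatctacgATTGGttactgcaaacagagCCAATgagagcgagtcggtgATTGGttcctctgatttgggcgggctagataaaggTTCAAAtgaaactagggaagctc
Cdk1: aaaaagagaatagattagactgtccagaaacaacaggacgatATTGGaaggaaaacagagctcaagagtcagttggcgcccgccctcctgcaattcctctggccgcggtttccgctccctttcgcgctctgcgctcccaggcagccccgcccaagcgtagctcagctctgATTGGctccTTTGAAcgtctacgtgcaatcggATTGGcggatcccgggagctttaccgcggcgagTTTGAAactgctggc
They lie at chr7:135716380-135716629, minus strand for Mki67, chr11:99024190-99024439, minus strand for Top2a and chr10:69352913-69353162, minus strand for Cdk1. TTTGAA was found 2 times in each, and CCAAT 3 times in Mki67 and Cdk1 and 6 times in Top2a. Of the 37 mitosis genes with a promoter in the table, 32.4% held TTTGAA, 78.4% held CCAAT and 27.0% held both, against 16.3%, 34.5% and 5.73% of all 27025 promoters of this length. A match is a description of these letters and not of a bound site.

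Among genes that brake the cell cycle, the called interactions were more positive. Of 27 tested p53 targets and cell cycle brakes, 9 had a more positive response in PT-KO (14.3% of all genes had) and 0 a more negative one, with medians of 0.36 in Ctrl and 0.97 in PT-KO, and 6 of the 9 were called with the sex term. Cdkn1a, which encodes the cyclin-dependent kinase inhibitor p21, had 6.03, 6.85 and 3.60 CPM in Ctrl, 24.8, 40.9 and 15.2 CPM in Ctrl+I/R, 4.48, 2.48 and 2.15 CPM in PT-KO and 246, 187 and 256 CPM in PT-KO+I/R. The injured groups did not overlap, and the response was 2.30 ± 0.35 in Ctrl and 6.25 ± 0.41 in PT-KO (interaction 3.95 ± 0.52, adjusted p = 0.00030, with the sex term 3.34, adjusted p = 0.0059). Trp53inp1, a p53-induced autophagy and death factor, was gained, with an interaction of 2.23 ± 0.26 (adjusted p = 0.00016). Mdm2, Sesn2, Perp, Plk3, Zmat3, Aen and Btg2 were the other 7 members called, at interactions from 0.65 to 1.81. Of these 7, the calls of Aen, Zmat3 and Btg2 held in 8, 5 and 4 of 12 fits that each left out 1 library, and Btg2 was not called with the sex term (1.39, adjusted p = 0.17).

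The reversed class was led by immune genes. Its 3 leading rises in Ctrl were Igha and Igkc, the constant regions of IgA and of the kappa light chain, and Ciita, the master activator of MHC class II genes. Ciita (mm10 chr16:10480059-10528418, plus strand) had 2.41, 3.98 and 2.05 CPM in Ctrl, 23.4, 15.5 and 4.81 CPM in Ctrl+I/R, 4.16, 2.53 and 5.77 CPM in PT-KO and 0, 0.356 and 0.322 CPM in PT-KO+I/R. I/R raised it by 2.38 ± 0.53 in Ctrl, although Ctrl+I/R library 4 was within the range of the PT-KO libraries, and in PT-KO+I/R 1 library had no count. The response in PT-KO was -3.98 ± 0.75, giving an interaction of -6.36 ± 0.91 (adjusted p = 0.00051, with the sex term -6.81, adjusted p = 0.0038). Igha had 1.26, 0.489 and 2.00 CPM in Ctrl, 33.6, 21.2 and 4.11 CPM in Ctrl+I/R, 3.03, 12.1 and 5.46 CPM in PT-KO and 1.54, 1.42 and 0.322 CPM in PT-KO+I/R, and an interaction of -6.61 ± 1.12 (adjusted p = 0.0013), but Ctrl+I/R library 4 was within the range of the PT-KO libraries. Igkc gave -5.66 ± 1.04 (adjusted p = 0.0021). Reads of immunoglobulin constant regions may be split between similar segments, and with the sex term these 3 genes counted as gained, since their rise in Ctrl was then not called.

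All 12 of 12 genes of MHC class II antigen presentation and dendritic cells had a more negative response in PT-KO, with and without the sex term, against 16.4% of all genes without it and 10.1% in both fits. In PT-KO kidneys 11 of the 12 fell after I/R, and in Ctrl 3 rose and none fell. The medians were 0.49 in Ctrl and -2.37 in PT-KO. H2-Eb1, a beta chain of MHC class II, had 34.5, 23.7 and 18.8 CPM in Ctrl, 46.4, 30.1 and 14.4 CPM in Ctrl+I/R, 33.5, 41.1 and 49.1 CPM in PT-KO and 8.47, 6.94 and 5.61 CPM in PT-KO+I/R, so the PT-KO+I/R libraries were lower than every other library. Its interaction was -2.81 ± 0.50 (adjusted p = 0.0017). The dendritic cell receptor Xcr1 had no count in PT-KO+I/R. The summed level of the list was 106 to 189 CPM in Ctrl, 113 to 311 CPM in Ctrl+I/R, 174 to 246 CPM in PT-KO and 42.0 to 60.6 CPM in PT-KO+I/R.

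Lymphocyte markers and many macrophage markers followed the same direction. Of 17 tested markers of T, NK and B cells, 9 had a more negative response in PT-KO (7 with the sex term), against 16.4% of all genes, and 0 a more positive one, and 15 were called without Ctrl library 2. The medians were 1.34 in Ctrl and -3.03 in PT-KO, or -2.61 with Gzma and Gzmb, which had a group without counts, at a bound of 3 counts. The B cell marker Ms4a1 was too low to be tested. The list summed to 12.1 to 25.6 CPM in Ctrl, 18.7 to 59.5 CPM in Ctrl+I/R, 15.0 to 17.6 CPM in PT-KO and 2.14 to 4.05 CPM in PT-KO+I/R. Of 20 monocyte and macrophage markers, 11 had a more negative response in PT-KO and 2 a more positive one, against 16.4% and 14.3% of all genes. Their summed level was 125 to 160.5 CPM in Ctrl, 243 to 418 CPM in Ctrl+I/R, 134 to 143 CPM in PT-KO and 191 to 292 CPM in PT-KO+I/R, so the sum lay above the sham libraries in both injured groups.

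Lyz2, the lysozyme of macrophages, had 11.5, 13.5 and 14.2 CPM in Ctrl, 99.6, 41.8 and 51.8 CPM in Ctrl+I/R, 12.3, 10.2 and 13.2 CPM in PT-KO and 5.73, 4.99 and 3.29 CPM in PT-KO+I/R. It rose in Ctrl (2.30 ± 0.29) and fell in PT-KO (-1.35 ± 0.31), an interaction of -3.65 ± 0.42 (adjusted p = 0.00015, with the sex term -3.53, adjusted p = 0.0024). Ccr2, the chemokine receptor of recruited monocytes, was reversed with an interaction of -3.71 ± 0.63 (adjusted p = 0.0014). The resident macrophage genes Adgre1 (F4/80) and Cx3cr1, chosen after their values were seen, gave -4.23 ± 0.42 and -5.67 ± 0.63. The exceptions were Cd68 and Cd14, a lysosomal protein and the lipopolysaccharide co-receptor, which rose in both genotypes and more in PT-KO, at interactions of 0.99 ± 0.32 and 2.37 ± 0.54, and neither was called with the sex term. The Cd68 call held in 4 of 12 fits without 1 library.

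Neutrophil markers did not follow the lymphocyte pattern. Of 8 tested markers, 7 rose in Ctrl and 8 in PT-KO, against 16.0% and 30.8% of all genes, with medians of 3.19 and 5.20. The interaction was called in 1 of the 8 as more positive, a share near the 14.3% of all genes. That gene, Retnlg, a neutrophil-secreted factor chosen after its values were seen, had 0.302, 0.122 and 0.388 CPM in Ctrl, 1.12, 1.93 and 0.696 CPM in Ctrl+I/R, 0.189, 0.108 and 0 CPM in PT-KO and 11.0, 11.3 and 16.2 CPM in PT-KO+I/R, an interaction of 4.76 ± 0.88 (adjusted p = 0.0022). The calgranulin S100a8 had 0.151, 0.0612 and 0.610 CPM in Ctrl, 5.49, 9.24 and 1.39 CPM in Ctrl+I/R, 0.126, 0.377 and 0.0614 CPM in PT-KO and 13.9, 14.9 and 17.3 CPM in PT-KO+I/R, and its interaction was not called (1.98 ± 1.24, adjusted p = 0.24). The defining marker Ly6g was too low to be tested. The list summed to 2.08 to 2.77 CPM in Ctrl, 11.4 to 48.7 CPM in Ctrl+I/R, 1.29 to 3.79 CPM in PT-KO and 61.2 to 96.6 CPM in PT-KO+I/R.

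Most chemokines and cytokines rose in each genotype. Of 30 tested, 22 rose in Ctrl and 20 in PT-KO, with medians of 2.02 and 1.59, and 5 had a called interaction, each of them more negative in PT-KO and called with the sex term too. That share is near the 16.4% of all genes with a more negative response. These were Ccl28, Ccl12, Cxcl9, Cxcl16 and Cx3cl1. The neutrophil chemokine Cxcl1, chosen after its values were seen, had 0.754, 1.41 and 0.554 CPM in Ctrl, 76.9, 82.2 and 18.5 CPM in Ctrl+I/R, 1.96, 0.700 and 1.90 CPM in PT-KO and 42.1, 70.2 and 84.6 CPM in PT-KO+I/R, and its interaction was -0.59 ± 0.91 (adjusted p = 0.65). Cxcl16, a membrane-bound chemokine for T cells, was reversed, with 35.2, 32.6 and 36.0 CPM in Ctrl, 71.2, 79.4 and 48.6 CPM in Ctrl+I/R, 36.5, 33.0 and 35.0 CPM in PT-KO and 26.4, 25.2 and 22.0 CPM in PT-KO+I/R. Its interaction was -1.45 ± 0.21 (adjusted p = 0.00056), and the Ctrl+I/R libraries lay above and the PT-KO+I/R libraries below all sham libraries. The epithelial chemokine Ccl28 was among the 3 leading gained falls, but its Ctrl libraries ranged from 2.14 to 25.1 CPM and PT-KO library 2 stood at 125 CPM.

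The lost class was led, among rises, by C4b, a complement component (mm10 chr17:34728380-34743882, minus strand), and by the alpha-1 antitrypsin genes Serpina1b and Serpina1a. C4b had 2.87, 6.36 and 5.49 CPM in Ctrl, 118, 27.5 and 26.4 CPM in Ctrl+I/R, 2.08, 4.15 and 7.06 CPM in PT-KO and 3.34, 2.40 and 2.77 CPM in PT-KO+I/R. Every Ctrl+I/R library lay above every other library, with library 1 far above the rest. The response was 3.56 ± 0.60 (adjusted p = 0.0016) in Ctrl and -0.67 ± 0.66 (adjusted p = 0.40) in PT-KO, an interaction of -4.23 ± 0.88 (adjusted p = 0.0040, with the sex term -4.06, adjusted p = 0.031). Serpina1b had 1.36, 0.551 and 0.776 CPM in Ctrl, 28.5, 16.7 and 16.4 CPM in Ctrl+I/R, 5.43, 7.65 and 6.20 CPM in PT-KO and 4.19, 19.0 and 6.90 CPM in PT-KO+I/R. Its interaction was -3.82 ± 0.71 (adjusted p = 0.0022) and that of Serpina1a -3.79 ± 0.94 (with the sex term -6.55), and for both the PT-KO libraries already stood above the Ctrl libraries without injury, a difference that did not pass the adjusted threshold. C4b has a close paralog, and the Serpina1 genes are near-identical copies, so the reads of each may be split among their family.

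Among falls, the lost class was led by Glul, Fbxo32 and Esrrb. Glul, the glutamine synthetase that lowers free ammonia, had 1022, 1261 and 880.4 CPM in Ctrl, 369, 279 and 509 CPM in Ctrl+I/R, 703, 702 and 803 CPM in PT-KO and 838, 1035 and 999 CPM in PT-KO+I/R. It fell in Ctrl (-1.45 ± 0.20), whereas the PT-KO+I/R libraries lay just above the PT-KO libraries, with a response of 0.38 ± 0.20 (adjusted p = 0.12) and an interaction of 1.83 ± 0.28 (adjusted p = 0.00079). The ubiquitin ligase Fbxo32 (atrogin-1) and the nuclear receptor Esrrb followed the same course, at interactions of 1.78 ± 0.29 and 1.64 ± 0.32.

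Matrix genes were called in both directions. Of 30 collagens and matrix genes, 9 had a more negative response in PT-KO (16.4% of all genes had) and 5 a more positive one, a share near the 14.3% of all genes, with medians of 0.97 in Ctrl and 0.42 in PT-KO. Of the 14, 8 were called with the sex term, and 9 of the 30 were called without Ctrl+I/R library 1. The fibrillar collagen Col1a1 was lost, with 27.3, 17.1 and 23.0 CPM in Ctrl, 127, 142 and 108 CPM in Ctrl+I/R, 21.2, 8.56 and 7.49 CPM in PT-KO and 17.3, 11.1 and 6.19 CPM in PT-KO+I/R. Ctrl+I/R lay above all other libraries, and the interaction was -2.60 ± 0.54 (adjusted p = 0.0043, with the sex term -2.57, adjusted p = 0.027). Col1a2, Col5a1, Fn1 and Bgn were also lost, and Col6a3 and Col15a1 were reversed. Among the 5 more positive responses were those of the basement membrane collagens Col4a1, Col4a2 and Col18a1 and the cross-linking enzyme Lox. Of these 5, only Lox was called with the sex term (interaction 2.26 ± 0.41, adjusted p = 0.0020). The calls of Col4a1, Col4a2 and Col18a1 held in 6, 10 and 5 of 12 fits that each left out 1 library, and that of Bgn in 9.

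**Figure D4:**
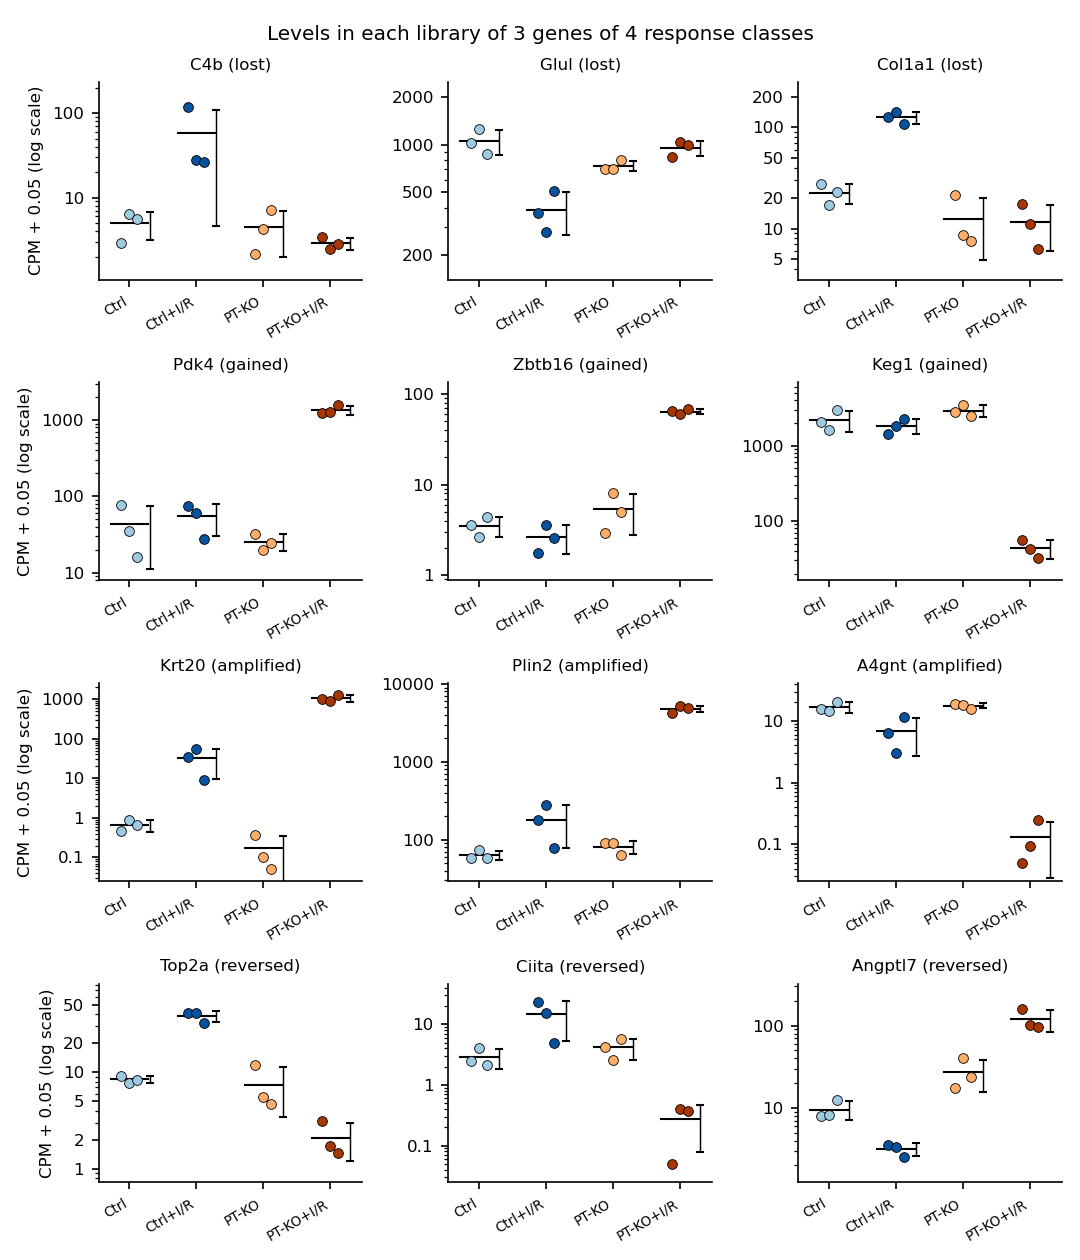
Level of 12 genes in each library, as CPM plus 0.05 on a log axis, by group (x axis), with 3 genes for each of the lost, gained, amplified and reversed classes. Points are libraries, lines are means of 3 and side bars are 1 SD, cut at the lower axis where SD exceeds the mean. In C4b and Col1a1 only Ctrl+I/R is raised, in Pdk4, Zbtb16 and Keg1 only PT-KO+I/R departs from the rest, and in Top2a the 2 injured groups lie on opposite sides of the sham groups. In Ciita, PT-KO+I/R lies below all other libraries, and 1 Ctrl+I/R library overlaps the sham groups.

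Every injury marker of the proximal tubule with a called interaction belonged to the amplified class. Over all genes, 16.0% rose in Ctrl, 30.8% rose in PT-KO and 14.3% had a more positive interaction. The 19 tested markers summed to 11122.2 to 28821.5 CPM in Ctrl+I/R and 25184.5 to 27406.9 CPM in PT-KO+I/R. In this sum, Ctrl+I/R library 2 lay above every PT-KO+I/R library. All 19 tested markers rose in Ctrl and 18 rose in PT-KO, with medians of 2.88 and 3.99. The interaction was called in 8, all of them more positive in PT-KO, and in 3 of these with the sex term (Krt20, Cdkn1a and Krt8). The number called was 3 without Ctrl+I/R library 1 or PT-KO+I/R library 4, 4 without Ctrl library 2 or PT-KO library 2 or 4, and 5 without PT-KO library 1 or PT-KO+I/R library 3. Krt20, a keratin switched on in damaged tubules (mm10 chr11:99428403-99438150, minus strand), had 0.402, 0.857 and 0.610 CPM in Ctrl, 34.3, 54.0 and 8.92 CPM in Ctrl+I/R, 0.316, 0.0538 and 0 CPM in PT-KO and 986, 887 and 1283 CPM in PT-KO+I/R. The lowest PT-KO+I/R library was 16.4 times the highest Ctrl+I/R library, and the interaction was 7.32 ± 1.27 (adjusted p = 0.0015, with the sex term 7.31, adjusted p = 0.037). The fold changes of Krt20 rest on sham libraries with almost no counts. Krt8, a keratin of simple epithelia, had 71.3, 68.9 and 84.3 CPM in Ctrl, 192, 306 and 144 CPM in Ctrl+I/R, 91.6, 95.9 and 84.2 CPM in PT-KO and 643, 594 and 802 CPM in PT-KO+I/R and an interaction of 1.39 ± 0.31 (adjusted p = 0.0064). Havcr1, chosen after its values were seen, had 1.91, 4.59 and 1.61 CPM in Ctrl, 786, 2107 and 381 CPM in Ctrl+I/R, 1.70, 1.13 and 1.10 CPM in PT-KO and 2262, 3932 and 3229 CPM in PT-KO+I/R. Its interaction of 2.55 ± 0.84 (adjusted p = 0.037) did not pass with the sex term (1.82, adjusted p = 0.29), and it passed in 5 of 12 fits that each left out 1 library (highest adjusted p = 0.12).

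Akap12 and Plin2 were the other leading amplified rises. Akap12, a scaffold for protein kinases A and C, had 19.9, 22.6 and 15.9 CPM in Ctrl, 47.8, 110.1 and 40.0 CPM in Ctrl+I/R, 22.0, 17.1 and 21.0 CPM in PT-KO and 929, 1744 and 1632 CPM in PT-KO+I/R, an interaction of 4.40 ± 0.50 (adjusted p = 0.00014). Falls were amplified in transporters and enzymes of the tubule. Of 36 proximal tubule transporters, 27 fell in Ctrl and 32 in PT-KO, against 14.5% and 31.4% of all genes, with medians of -0.72 and -1.48. The interaction was more negative in 18 (15 with the sex term), against 16.4% of all genes, and more positive in 5 (3 with the sex term), a share near the 14.3% of all genes. Slc2a2, the basolateral glucose transporter GLUT2, had 299, 329.8 and 337 CPM in Ctrl, 191, 194 and 223 CPM in Ctrl+I/R, 262, 251 and 256 CPM in PT-KO and 26.2, 13.7 and 10.7 CPM in PT-KO+I/R. Its groups did not overlap after injury, and the interaction was -3.27 ± 0.34 (adjusted p = 8.4e-05). Slc5a12, a sodium-coupled lactate transporter, gave -3.08 ± 0.42 (adjusted p = 0.00037), and Lrp2 (megalin), chosen after its values were seen, gave -1.32 ± 0.31 (adjusted p = 0.0084).

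Of 42 proximal tubule metabolic enzymes, 15 had a more negative response in PT-KO and 2 a more positive one, against 16.4% and 14.3% of all genes, with medians of -0.97 in Ctrl and -2.07 in PT-KO. Their summed levels overlapped, at 10439.6 to 20278.3 CPM in Ctrl+I/R and 12823.7 to 15907.4 CPM in PT-KO+I/R. Those of the 36 transporters did not, at 12793.3 to 19490.1 CPM and 11368.8 to 11663.9 CPM. Keg1, a kidney member of the glycine acyltransferase family (mm10 chr19:12695786-12719902, plus strand), had 2042, 1594 and 2965 CPM in Ctrl, 1439, 1836 and 2248 CPM in Ctrl+I/R, 2804, 3489 and 2504 CPM in PT-KO and 56.5, 41.8 and 32.3 CPM in PT-KO+I/R. Its Ctrl and Ctrl+I/R libraries overlapped, and the PT-KO+I/R libraries were at most 56.5 CPM. The response was -0.26 ± 0.26 (adjusted p = 0.48) in Ctrl and -6.08 ± 0.32 in PT-KO, an interaction of -5.82 ± 0.39 (adjusted p = 1.1e-05, with the sex term -5.39, adjusted p = 0.00016). Acmsd, an enzyme of tryptophan breakdown, was amplified, with 146, 142 and 158 CPM in Ctrl, 95.9, 43.1 and 112 CPM in Ctrl+I/R, 153, 139 and 130.3 CPM in PT-KO and 4.62, 2.31 and 2.84 CPM in PT-KO+I/R, and an interaction of -4.65 ± 0.44 (adjusted p = 5.2e-05). Prok1, a secreted peptide that acts on blood vessels, was the leading gained fall, with 16.9, 12.7 and 25.5 CPM in Ctrl, 13.0, 8.30 and 20.6 CPM in Ctrl+I/R, 19.1, 42.2 and 25.4 CPM in PT-KO and 0.171, 0.223 and 0.258 CPM in PT-KO+I/R, and its interaction was -6.59 ± 0.69 (adjusted p = 9.5e-05). The steroid enzyme Hsd3b2, whose reads may be shared with its family, gave -5.35 ± 0.57, and the glycosyltransferase A4gnt, with at most 3 counts in a PT-KO+I/R library, gave -6.34 ± 0.81. The anion exchanger Slc4a1 of intercalated and red cells was amplified as well (-5.63 ± 1.22), and it ranged from 1.31 to 28.5 CPM within Ctrl+I/R.

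Falls extended beyond the proximal tubule. Of 16 markers of the thick ascending limb and distal tubule, 14 fell in each genotype, with medians of -1.25 and -2.34, and the interaction was more negative in 7 and more positive in 1, against 16.4% and 14.3% of all genes. Their summed level was 2513.3 to 6286.2 CPM in Ctrl+I/R and 2928.2 to 3464.9 CPM in PT-KO+I/R. In this sum, Ctrl+I/R library 2 lay below every PT-KO+I/R library. Slc12a1, the sodium-potassium-chloride cotransporter of the thick ascending limb, had 1939.7, 1828 and 1521 CPM in Ctrl, 486, 59.9 and 720.3 CPM in Ctrl+I/R, 1415, 1052 and 1534 CPM in PT-KO and 50.7, 38.5 and 32.7 CPM in PT-KO+I/R. Ctrl+I/R library 2 was close to the PT-KO+I/R libraries and the other 2 were not. Its interaction of -2.98 ± 0.82 (adjusted p = 0.017) had an adjusted p of 0.065 with the sex term. Of the principal cell markers, 3 of 12 had a more negative response and 1 a more positive one (7 in all without Ctrl+I/R library 2 or PT-KO library 2), against 16.4% and 14.3% of all genes. Hsd11b2, an enzyme that inactivates glucocorticoid hormones, gave -2.27 ± 0.48 (adjusted p = 0.0045).

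**Figure D5:**
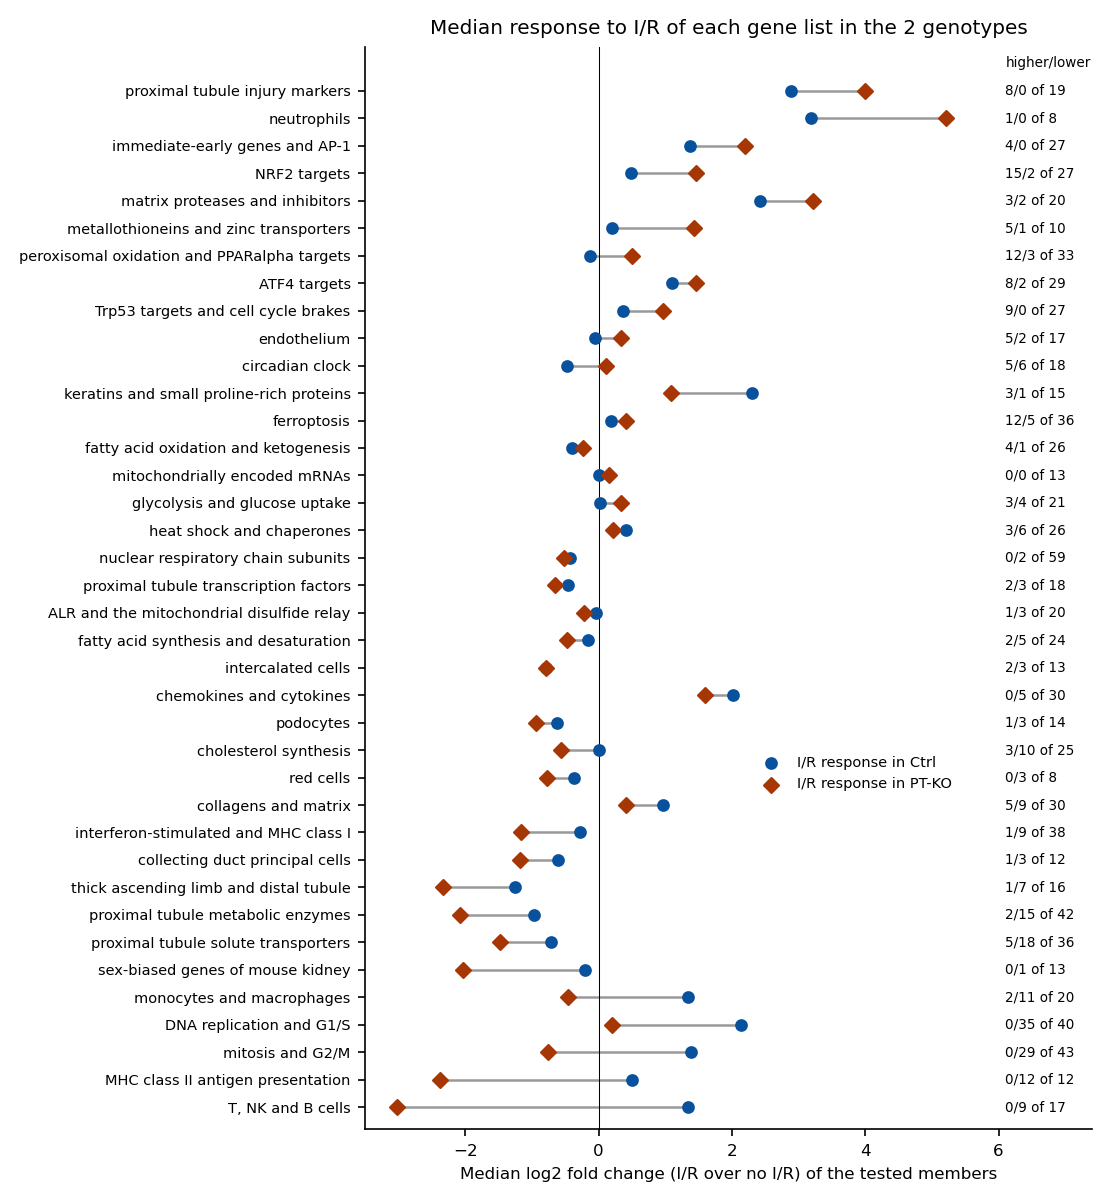
Median I/R response (log2 fold change, x axis) of the tested members of each of 38 gene lists in Ctrl (circles) and PT-KO (diamonds), ordered by the median interaction, with the number of members whose interaction was called higher or lower at the right. At the bottom, the circles of the replication, mitosis, MHC class II and lymphocyte lists lie to the right of the diamonds, and at the top the order is the opposite for injury markers and NRF2 targets.

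The gained rises were led by Pdk4, Zbtb16 and Ctxn3. Pdk4, the kinase that blocks pyruvate entry into the citric acid cycle and a target of PPARα (mm10 chr6:5483351-5496309, minus strand), had 78.2, 35.1 and 15.9 CPM in Ctrl, 75.3, 61.0 and 27.6 CPM in Ctrl+I/R, 32.4, 19.9 and 24.3 CPM in PT-KO and 1234, 1264 and 1564 CPM in PT-KO+I/R. The 9 libraries of the other groups overlapped, and PT-KO+I/R stood above all of them. The response was 0.34 ± 0.47 (adjusted p = 0.61) in Ctrl and 5.73 ± 0.56 (adjusted p = 5.1e-06) in PT-KO, with an interaction of 5.39 ± 0.70 (adjusted p = 0.00028, with the sex term 3.94, adjusted p = 0.0019). Zbtb16, the transcription factor PLZF, had 3.52, 2.57 and 4.32 CPM in Ctrl, 1.70, 3.55 and 2.53 CPM in Ctrl+I/R, 2.90, 8.02 and 4.97 CPM in PT-KO and 64.8, 60.3 and 67.6 CPM in PT-KO+I/R, and an interaction of 4.02 ± 0.46 (adjusted p = 0.00015). Ctxn3, a small membrane protein of kidney and brain, gave 3.50 ± 0.97 (adjusted p = 0.018), which was not called without Ctrl library 3.

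PPARα is the receptor that switches on peroxisomal and mitochondrial fatty acid breakdown. Of 33 genes of peroxisomal oxidation and PPARα targets, 12 had a more positive response in PT-KO and 3 a more negative one (10 and 1 with the sex term), against 14.3% and 16.4% of all genes, and the medians were -0.14 in Ctrl and 0.50 in PT-KO. In PT-KO 16 of the 33 rose and 8 fell (30.8% and 31.4% of all genes), and in Ctrl 2 rose and 8 fell (16.0% and 14.5%). Plin2, the protein that coats lipid droplets (mm10 chr4:86648386-86670060, minus strand), had 58.5, 72.9 and 58.3 CPM in Ctrl, 179.6, 279 and 78.8 CPM in Ctrl+I/R, 89.4, 91.0 and 63.1 CPM in PT-KO and 4268, 5142 and 4956 CPM in PT-KO+I/R. The lowest PT-KO+I/R library was 15.3 times the highest Ctrl+I/R library, and the interaction was 4.38 ± 0.49 (adjusted p = 0.00012, with the sex term 4.26, adjusted p = 0.00099). Of genes chosen after their values were seen, the lipase inhibitor Angptl4 gave 2.42 ± 0.45, the acyl-CoA thioesterase Acot2 gave 2.21 ± 0.17 and the peroxisomal enzyme Ehhadh gave 1.81 ± 0.42. Acot1 and Acot2 are near-identical copies and may share reads.

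Of 26 genes of mitochondrial fatty acid oxidation, 4 had a more positive response in PT-KO and 1 a more negative one, and the first share is near the 14.3% of all genes. The medians were -0.39 in Ctrl and -0.23 in PT-KO. The number called was 2 to 3 without any 1 of Ctrl library 1, Ctrl+I/R library 1, PT-KO library 2 or 4 or any PT-KO+I/R library, 9 without Ctrl library 3 and 8 without Ctrl+I/R library 2 or 4. Cpt1a, which passes fatty acids into mitochondria, was reversed, with 545, 481 and 569.8 CPM in Ctrl, 432, 317 and 336 CPM in Ctrl+I/R, 689, 730.0 and 666 CPM in PT-KO and 1052, 976 and 977 CPM in PT-KO+I/R. It fell in Ctrl (-0.56 ± 0.13) and rose in PT-KO (0.53 ± 0.13), an interaction of 1.08 ± 0.18 (adjusted p = 0.0012, with the sex term 1.18, adjusted p = 0.0040). Acsl1, which activates long-chain fatty acids, was lost (1.45 ± 0.43), and its interaction was not called with the sex term (adjusted p = 0.24). It was called in 8 of 12 fits without 1 library.

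Among sterol genes, more of the called interactions were negative than positive. Of 25 genes of cholesterol synthesis, 10 had a more negative response in PT-KO, all 10 also with the sex term, and 3 a more positive one, of which 1 was called with it, against 16.4% and 14.3% of all genes. The medians were 0.01 in Ctrl and -0.57 in PT-KO. When libraries were scaled by total counts, 10 were more negative and 0 more positive. Sqle, the squalene epoxidase, was reversed, with 43.9, 35.7 and 71.9 CPM in Ctrl, 130.2, 189 and 156 CPM in Ctrl+I/R, 48.1, 56.8 and 59.6 CPM in PT-KO and 34.2, 38.2 and 32.1 CPM in PT-KO+I/R. All Ctrl+I/R libraries were above the sham range and 2 of the 3 PT-KO+I/R libraries below it, and the interaction was -2.30 ± 0.31 (adjusted p = 0.00037). Idi1, an isomerase of the same pathway, gave -2.27 ± 0.57 (adjusted p = 0.011), and -1.40 with the sex term. Of 24 genes of fatty acid synthesis, 5 were more negative (3 with the sex term, and 16.4% of all genes) and 2 more positive (0 with the sex term, and 14.3% of all genes), and the desaturase Fads2 gave -2.01 ± 0.26 (adjusted p = 0.00028).

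Targets of NRF2, the transcription factor of the oxidant response, mostly had a more positive response in the knockout. Of 27 targets, 15 had a more positive response in PT-KO and 2 a more negative one (10 and 1 with the sex term), against 14.3% and 16.4% of all genes, with medians of 0.48 in Ctrl and 1.46 in PT-KO. Srxn1, the sulfiredoxin that repairs peroxiredoxins, chosen after its values were seen, had 58.5, 56.3 and 58.0 CPM in Ctrl, 99.6, 164 and 99.5 CPM in Ctrl+I/R, 52.3, 57.7 and 55.7 CPM in PT-KO and 663, 721 and 843 CPM in PT-KO+I/R, an interaction of 2.68 ± 0.25 (adjusted p = 5.0e-05). Gsta1 and Gsta4, glutathione transferases named by rule, gave 4.80 ± 1.29 and 3.46 ± 0.57, and Gsta1 was not called with the sex term (4.40, adjusted p = 0.17). Gsta4 was at 98.6 and 128 CPM in the 2 female Ctrl libraries and at 27.2 CPM in the male one, and with the sex term its interaction was 1.82 (adjusted p = 0.0028) and its fall in Ctrl was not called (-0.36, adjusted p = 0.35). The carbonyl reductase Cbr1, another leading reversed fall, also stood apart in the female libraries, at 254 and 228 CPM against 41.4 CPM, and its interaction moved from 2.99 ± 0.66 to 0.92. The male Ctrl library was below all Ctrl+I/R libraries, and with the sex term the Ctrl response of Cbr1 turned from -1.38 to 0.69 (adjusted p = 0.091), so the reversal rests on the female libraries. The third leading reversed fall was Angptl7, a secreted angiopoietin-like protein, with 7.99, 8.20 and 12.3 CPM in Ctrl, 3.53, 3.34 and 2.47 CPM in Ctrl+I/R, 17.5, 40.0 and 23.6 CPM in PT-KO and 161, 100.5 and 96.3 CPM in PT-KO+I/R. Its interaction was 3.73 ± 0.45 (adjusted p = 0.00018, with the sex term 4.10, adjusted p = 0.00074).

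Ferroptosis is a death by iron-dependent lipid peroxidation. Of 36 genes of the process, 12 had a more positive response in PT-KO and 5 a more negative one (9 and 4 with the sex term), against 14.3% and 16.4% of all genes, so that the second share is no higher than over all genes. The medians were 0.19 in Ctrl and 0.41 in PT-KO. The members with a more positive response do not act in 1 direction: Acsl4 and Lpcat3 build the lipids that are oxidized, and Slc7a11, Slc3a2, Gch1, Aifm2 and Fth1 are known to limit the process. Acsl4, chosen after its values were seen, had 72.7, 87.7 and 71.6 CPM in Ctrl, 120.2, 179.9 and 106 CPM in Ctrl+I/R, 72.6, 63.5 and 78.3 CPM in PT-KO and 388, 366 and 349.7 CPM in PT-KO+I/R, an interaction of 1.56 ± 0.24 (adjusted p = 0.00084). Gch1, the enzyme of tetrahydrobiopterin synthesis, had 2.71, 2.02 and 2.33 CPM in Ctrl, 5.18, 6.58 and 2.59 CPM in Ctrl+I/R, 1.33, 0.862 and 1.35 CPM in PT-KO and 15.7, 21.4 and 20.8 CPM in PT-KO+I/R, and gave 3.01 ± 0.44 (adjusted p = 0.00056). Slc7a11, the cystine importer xCT, also chosen after its values were seen, had 0.251, 0.489 and 0.610 CPM in Ctrl, 1.34, 2.25 and 0.696 CPM in Ctrl+I/R, 0.252, 0.323 and 0.552 CPM in PT-KO and 3.94, 21.9 and 12.8 CPM in PT-KO+I/R. Its interaction was 3.41 ± 1.0 (adjusted p = 0.023, with the sex term 3.86, adjusted p = 0.057), and it passed in 8 of 12 fits without 1 library. Slc3a2, its partner chain, was reversed (1.39 ± 0.18, adjusted p = 0.00028), but with the sex term its fall in Ctrl was not called (-0.38, adjusted p = 0.14). Among more negative responses was Cybb (-3.22 ± 0.39), the oxidase subunit of phagocytes. The interaction of the peroxidase Gpx4 was -0.33 ± 0.20 (adjusted p = 0.23).

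The metallothioneins Mt1 and Mt2, which bind zinc and copper, were amplified rises. Of 10 tested metallothioneins and zinc transporters, 5 had a more positive response in PT-KO and 1 a more negative one, against 14.3% and 16.4% of all genes, and all 6 were called with the sex term. Mt1 had 99.1, 80.2 and 66.5 CPM in Ctrl, 103, 179.5 and 124 CPM in Ctrl+I/R, 63.5, 61.4 and 58.8 CPM in PT-KO and 851, 1071 and 1259.6 CPM in PT-KO+I/R. The Ctrl+I/R libraries lay just above the Ctrl libraries, and PT-KO+I/R stood far above all others. The response was 0.72 ± 0.21 in Ctrl and 4.11 ± 0.24 in PT-KO, an interaction of 3.39 ± 0.30 (adjusted p = 4.5e-05, with the sex term 3.09, adjusted p = 0.00042). Mt2 had 50.6, 45.8 and 32.3 CPM in Ctrl, 116, 235 and 89.8 CPM in Ctrl+I/R, 39.8, 40.4 and 37.3 CPM in PT-KO and 766, 933 and 1288 CPM in PT-KO+I/R, and an interaction of 2.89 ± 0.44 (adjusted p = 0.00074). The zinc exporter Slc30a1, chosen after its values were seen, went the other way (-0.72 ± 0.16, adjusted p = 0.0056).

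The upstream sequences of Mt1 and Mt2 are shown because metal-response elements are known near the starts of these genes. They are the 250 bases before the annotated start (RefSeq, GRCm38.p6, 5′ to 3′), with matches to the metal-response cores TGCACNC and TGCGCNC on either strand in capitals.
Mt1: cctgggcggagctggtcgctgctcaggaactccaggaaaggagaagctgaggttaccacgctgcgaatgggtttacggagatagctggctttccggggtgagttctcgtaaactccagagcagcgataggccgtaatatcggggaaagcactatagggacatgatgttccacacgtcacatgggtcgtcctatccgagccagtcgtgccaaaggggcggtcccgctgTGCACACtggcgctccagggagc
Mt2: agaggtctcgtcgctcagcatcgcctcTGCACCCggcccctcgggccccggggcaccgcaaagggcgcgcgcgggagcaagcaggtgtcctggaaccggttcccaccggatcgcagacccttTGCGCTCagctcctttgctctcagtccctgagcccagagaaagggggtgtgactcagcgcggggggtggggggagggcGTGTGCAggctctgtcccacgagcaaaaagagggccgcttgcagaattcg
They lie at chr8:94178839-94179088, plus strand for Mt1 and chr8:94172368-94172617, plus strand for Mt2. The annotated starts decide which bases are shown, so known elements can lie outside them, and the match counts hold for these bases only. Mt1 held 1 match to TGCACNC and 0 to TGCGCNC, and Mt2 held 2 and 1. Of all 27025 promoters, 10.2% held TGCACNC and 12.6% held TGCGCNC, against 4 and 3 of the 9 list members that have a promoter there.

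Clock genes were called on both sides. Of 18, 5 had a more positive response in PT-KO and 6 a more negative one (5 and 3 with the sex term), against 14.3% and 16.4% of all genes, with medians of -0.47 in Ctrl and 0.11 in PT-KO. Arntl, the activating clock factor BMAL1, was gained, with 2.71, 2.20 and 2.05 CPM in Ctrl, 4.20, 3.19 and 3.67 CPM in Ctrl+I/R, 0.694, 1.40 and 1.35 CPM in PT-KO and 25.1, 14.0 and 18.6 CPM in PT-KO+I/R, and an interaction of 3.38 ± 0.39 (adjusted p = 0.00016). Hlf, an output factor of the clock, was an amplified fall, with 145, 159 and 166 CPM in Ctrl, 73.6, 37.8 and 97.3 CPM in Ctrl+I/R, 161, 161 and 181 CPM in PT-KO and 13.7, 8.90 and 10.4 CPM in PT-KO+I/R, and gave -2.77 ± 0.37 (adjusted p = 0.00036). Nr1d1, the repressor of Arntl, chosen after its values were seen, was reversed: it fell in Ctrl (-1.22 ± 0.16) and rose in PT-KO (0.72 ± 0.16). The hour at which kidneys were taken is not given in the labels, and its part in these values was not tested.

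Few mitochondrial genes had a called interaction. Of 59 nuclear subunits of the respiratory chain, 34 fell in Ctrl and 44 in PT-KO, with medians of -0.43 and -0.51, and the interaction was called in 2 (Ndufs1 at -0.72 ± 0.20 and Ndufb10 at -0.69 ± 0.17), neither with the sex term. Without Ctrl+I/R library 2, 10 of the 59 were called. Of the 13 mRNAs encoded in mitochondrial DNA, 0 had a called interaction by edgeR or DESeq2 and 0 an unadjusted p under 0.05, although 1 was called with the sex term. Of 20 genes of ALR's disulfide relay and its substrates, 3 had a more negative response in PT-KO and 1 a more positive one, no more than the 16.4% and 14.3% of all genes, and 2 in all were called without Ctrl library 1 or 2, Ctrl+I/R library 4, PT-KO library 2 or PT-KO+I/R library 4. Aifm1, which tethers Chchd4 to the inner membrane, had 165, 159 and 176 CPM in Ctrl, 127, 113 and 139.8 CPM in Ctrl+I/R, 168, 187 and 183 CPM in PT-KO and 86.4, 99.4 and 81.9 CPM in PT-KO+I/R, and an interaction of -0.61 ± 0.15 (adjusted p = 0.011). Chchd3, a cristae protein imported by the relay, gave -0.61 ± 0.19 (adjusted p = 0.029). Neither passed with the sex term (adjusted p = 0.066 and 0.14). The Chchd3 call held in 7 of 12 fits without 1 library.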

How the data were processed

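Total RNA of mouse kidney cortex was sequenced in 12 libraries. According to the submitters' processing notes, reads were aligned with HISAT2 2.0.4 to mm10, and the counting program and its annotation are not given in the sources used here. The authors deposited 1 table of raw counts per gene with 55487 identifiers, of which 55141 had a GENCODE M21 symbol. Every column was assigned to a group through the sample labels, except that the third Ctrl column carries a number that no Ctrl label has and was kept as an unnumbered library of its group.

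Genes with low counts were removed with filterByExpr in edgeR 4.0.16 (R 4.3.3), counts were scaled by TMM, and edgeR's quasi-likelihood test was fitted to all 12 libraries with 1 term per group. Contrasts were I/R in each genotype and the difference of these contrasts. P-values were adjusted by Benjamini-Hochberg over the 16168 genes tested and genes were called at an adjusted p under 0.05. The SE is the absolute log2 fold change divided by the square root of the F statistic. CPM are counts per library size, the latter scaled by TMM. Totals of 12165089 to 23123693 counts set the counting error, and groups of 3 libraries set the remaining precision.

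Named genes were, for each class and direction, the 3 with the largest interaction at a mean of at least 100 counts that were also called with a sex term (predicted genes left out), the 2 leading called members of each of 38 gene lists, and Gfer. A few genes that the rule or lists name are not reported here. Other genes were chosen after their values were seen, as stated. The gene lists and the comparison were chosen with earlier results of these data known, so no test over a list was made, and lists are given as counts, with most medians, to be read against the shares over all genes. Medians including genes with a group at or under 3 counts were also taken with those genes at that bound.

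Alternatives were DESeq2 1.42.0, total counts in place of TMM, no filter, at least 10 counts in every library, a sex term, a replicate block, each genotype's 6 libraries alone and each library left out in turn. The fit was tested on simulated counts for the interaction over 16168 genes, where 56% of 100 genes with a true log2 difference of 1 and 95% of 100 with 2 were called, along with 8 of 15680 unchanged genes. The changed genes were drawn from those with a mean of at least 100 counts and no extreme difference between groups. The rates do not cover genes with fewer counts, and far fewer genes were changed than were called in the data. Same-numbered libraries of different groups had deviations correlated at -0.188 to 0.184 over 12 pairs, so the numbers were not used as pairs. No 2 libraries were duplicates.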

Additional observations from a re-analysis of the deposited data

Results flagged for a closer look

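The I/R response differed between the genotypes, by the interaction test, in 4953 genes. The values below are the interaction log2 fold changes (PT-KO response minus Ctrl response) of the named genes among them. Groups of 3 libraries are too small for a test of single outlying libraries.

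Responses lost in PT-KO were those of C4b (-4.23), Serpina1b (-3.82), Serpina1a (-3.79) and Col1a1 (-2.60), which had risen in Ctrl, and of Glul (1.83), Fbxo32 (1.78), Esrrb (1.64) and Acsl1 (1.45), which had fallen. Dampened responses were those of Mcm4 (-1.58), Cdt1 (-1.39) and Mcm6 (-1.30). Reversed from a rise to a fall were Igha (-6.61), Ciita (-6.36), Igkc (-5.66), Sqle (-2.30), Tk1 (-3.97), E2f1 (-3.36), Top2a (-4.03), Mki67 (-3.35), Cxcl16 (-1.45), Ccr2 (-3.71) and Lyz2 (-3.65). Reversed from a fall to a rise were Angptl7 (3.73), Gsta4 (3.46), Cbr1 (2.99), Cpt1a (1.08) and Slc3a2 (1.39). With the sex term the Ctrl response was not called for Igha, Ciita, Igkc, Tk1, Mki67, Ccr2, Gsta4, Cbr1 and Slc3a2, which then counted as gained, and that of Cbr1 turned to 0.69.

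Gained rises were those of Pdk4 (5.39), Zbtb16 (4.02), Ctxn3 (3.50), Trp53inp1 (2.23), Slc2a1 (1.92), Arntl (3.38) and Cldn5 (0.91). Gained falls were those of Prok1 (-6.59), Keg1 (-5.82), Ccl28 (-5.54), Hacd4 (-1.94), Idi1 (-2.27), Cybb (-3.22), Shmt2 (-1.34), Gbp2 (-2.17), Ifit3 (-1.86), Chchd3 (-0.61), Odc1 (-1.85), H2-Eb1 (-2.81), Aqp4 (-2.14), Aqp6 (-3.65) and Bpgm (-0.53). Amplified rises were those of Krt20 (7.32), Akap12 (4.40), Plin2 (4.38), Cdkn1a (3.95), Pax8 (1.21), Gch1 (3.01), Gsta1 (4.80), Hspb1 (2.06), Bag3 (1.10), Btg2 (1.68), Klf6 (1.52), Plaur (1.71), Krt8 (1.39), Mt1 (3.39) and Mt2 (2.89). Amplified falls were those of A4gnt (-6.34), Slc4a1 (-5.63), Hsd3b2 (-5.35), Slc2a2 (-3.27), Slc5a12 (-3.08), Esrra (-1.24), Acmsd (-4.65), Fads2 (-2.01), Pdk1 (-1.06), Ndufs1 (-0.72), Ndufb10 (-0.69), Aifm1 (-0.61), Hlf (-2.77), Tek (-1.10), Clic5 (-1.06), Slc12a1 (-2.98), Tmem52b (-2.64) and Hsd11b2 (-2.27). In the fit with the sex term, Plin2, Slc4a1, Slc2a2, Slc5a12, Esrra, Pax8, Acmsd, Gch1, Bag3, Tek, Tmem52b and Hsd11b2 counted as gained and no longer as amplified, and Trp53inp1 as reversed and no longer as gained.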

How the results depend on the processing

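Against 4953 called interactions, 3233 were called with the sex term, 3215 with a replicate block and 3622 to 5509 with 1 library left out, while DESeq2, total counts, no filter and a minimum of 10 counts gave 5376, 4588, 4459 and 4345. I/R calls in Ctrl (4938) fell to 2029 with the sex term, 3019 from the 6 Ctrl and Ctrl+I/R libraries alone and ranged from 2887 to 5663 with 1 library left out, and those in PT-KO (10048) ranged from 9039 to 10326. With the sex term 149 genes were lost, 14 dampened, 291 amplified and 99 reversed, and with the replicate block 364 were amplified. Leaving out 1 library gave 241 to 428 lost, 2282 to 3956 gained, 12 to 53 dampened, 620 to 1097 amplified and 152 to 367 reversed genes. Of the called genes, 4951 kept their sign with the sex term and every tested one kept it under DESeq2, total counts, no filter, the minimum of 10 counts and the block. DESeq2 shared 4898 calls of the same sign, total counts 4232 and the block 2938. Of the 4953 calls, 2025 were lost with the sex term. Of the 82 named genes with a called interaction, 17 lost the call with the sex term, none of them class leaders since those were chosen as called with it, 16 with the block, 3 with total counts, 1 with the minimum of 10 counts and 0 with DESeq2 or no filter. Among the interactions of named genes the only direction that turned was that of Gfer, at -0.0036 without PT-KO library 1, against at most 0.36 with another library left out. Between PT-KO and Ctrl, where edgeR called 0 genes, the block called 355 and no filter 260. The labels number libraries within groups. Only 1 of the 12 same-numbered pairs had deviations correlated above 0.1 (median -0.022), so the numbers share no pairing in these data. Ctrl library 3 and PT-KO+I/R library 3 each had a block of their own, so the block fit drew nothing from them. Its Ctrl group thus rested on the female libraries alone. The fit without Ctrl library 3 rests on them too, and it called 831 genes between PT-KO and Ctrl. The block's counts therefore mix sex with genotype and injury, and the share of each was not tested. With 3 libraries a group and the Ctrl group split by sex, sex and injury cannot be told apart in the control response without resting on 1 library.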

Other observations

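Over all tested genes, 14.3% had a more positive response in PT-KO and 16.4% a more negative one, and several of the counts below are near these shares. Of 26 heat shock and chaperone genes, 15 rose and 2 fell in Ctrl, 10 rose and 5 fell in PT-KO, and the interaction was more positive in 3 and more negative in 6 (5 in all without Ctrl library 2, PT-KO library 2 or PT-KO+I/R library 4). Hspb1, the small heat shock protein HSP27, had 5.53, 5.26 and 3.27 CPM in Ctrl, 20.0, 37.4 and 7.78 CPM in Ctrl+I/R, 3.41, 2.37 and 3.01 CPM in PT-KO and 55.3, 53.0 and 60.9 CPM in PT-KO+I/R. The interaction of Hspb1 was 2.06 ± 0.61 (adjusted p = 0.024), held in 7 of 12 fits without 1 library, and had an adjusted p of 0.18 with the sex term. Bag3, a co-chaperone of HSP70, gave 1.10 ± 0.18 (adjusted p = 0.0012). Of 29 targets of ATF4, the transcription factor of amino acid stress, 21 rose in Ctrl and 22 in PT-KO, with 8 more positive interactions and 2 more negative ones, and 5 and 0 of these were called with the sex term. The mitochondrial serine enzyme Shmt2 was gained as a fall (-1.34 ± 0.32, adjusted p = 0.0086, with the sex term 0.071).

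Interferon-stimulated and MHC class I genes were more negative in PT-KO in 9 of 38 and more positive in 1. In Ctrl 0 rose and 3 fell, and in PT-KO 1 rose and 17 fell. Gbp2, an interferon-induced GTPase, had 19.2, 13.2 and 13.7 CPM in Ctrl, 37.6, 21.6 and 11.1 CPM in Ctrl+I/R, 11.8, 8.83 and 19.6 CPM in PT-KO and 4.88, 4.45 and 4.32 CPM in PT-KO+I/R, an interaction of -2.17 ± 0.55 (adjusted p = 0.011). That of Ifit3 (-1.86 ± 0.61, adjusted p = 0.037, with the sex term 0.091) held in 4 of 12 fits without 1 library. The number of the 38 called ranged from 5 to 13 over these fits.

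Immediate-early genes rose in both genotypes, 15 of 27 in Ctrl and 22 in PT-KO. The interaction was called in 4, all more positive, a share near that of all genes, but in 1 with the sex term, in 8 by DESeq2 and in 1 to 13 with 1 library left out. The Klf6 call held in 4 of the 12 fits and was lost with the sex term (adjusted p = 0.19). Of 20 matrix proteases and inhibitors, 3 were more positive and 2 more negative, and the urokinase receptor Plaur (1.71 ± 0.61, adjusted p = 0.0495) held in 2 of the 12 fits and was not called with the sex term (1.36, adjusted p = 0.26). Of 15 keratins and small proline-rich proteins, 3 were more positive and 1 more negative. Of 21 glycolysis genes, 3 were more positive and 4 more negative. The glucose transporter Slc2a1 (GLUT1) had 43.5, 52.2 and 40.8 CPM in Ctrl, 45.4, 83.1 and 57.4 CPM in Ctrl+I/R, 40.2, 33.5 and 39.9 CPM in PT-KO and 134, 218 and 234 CPM in PT-KO+I/R, with PT-KO+I/R above every other library and an interaction of 1.92 ± 0.33 (adjusted p = 0.0013), while the pyruvate dehydrogenase kinase Pdk1 gave -1.06 ± 0.35 (adjusted p = 0.040), held in 2 of the 12 fits and was not called with the sex term (adjusted p = 0.074).

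Of 18 transcription factors of the proximal tubule, 2 were more positive and 3 more negative. Esrra, the nuclear receptor of mitochondrial genes, gave -1.24 ± 0.27 (adjusted p = 0.0055), and Pax8, a factor of kidney development, gave 1.21 ± 0.20 (adjusted p = 0.0011). Endothelial markers were more positive in 5 of 17 and more negative in 2, of which 0 and 1 were called with the sex term. The tight junction gene Cldn5 gave 0.91 ± 0.24 (adjusted p = 0.12 with the sex term) and the angiopoietin receptor Tek -1.10 ± 0.21. Of 14 podocyte markers, 1 was more positive and 3 more negative, among them Clic5 (-1.06 ± 0.21). Of 13 intercalated cell markers, 2 were more positive and 3 more negative, with Aqp6 at -3.65 ± 0.37. The thick limb gene Tmem52b gave -2.64 ± 0.62, and the principal cell water channel Aqp4 gave -2.14 ± 0.61 and held in 10 of the 12 fits. Of 8 red cell genes, 3 were more negative, among them Bpgm (-0.53 ± 0.18), which held in 3 of the 12 fits. With the sex term 1 of the 3 was called, and Bpgm was not (-0.25, adjusted p = 0.31). Hacd4, a dehydratase of very long-chain fatty acid synthesis, gave -1.94 ± 0.51 (adjusted p = 0.014).

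With 1 library left out, the number called ranged from 3 to 7 among the proximal tubule factors, 3 to 6 among endothelial, 2 to 5 among podocyte and 3 to 5 among intercalated cell markers, 3 to 10 among the proteases, 2 to 5 among the keratins and 2 to 9 among the glycolysis genes.

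Of 13 genes with a sex bias in mouse kidney, Odc1 (-1.85 ± 0.51, adjusted p = 0.017) had the only called interaction, which was not called with the sex term. Without Ctrl library 3, which leaves females as the sham controls, 11 of the 13 were called.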
